A study of Homo sapiens with 16 samples.

Results

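Gene expression was compared between 16HBE-WT cells stimulated with HGF and unstimulated 16HBE-WT cells, on 8 of the 16 one-colour microarrays of the series. The 4 arrays of 16HBE-WT+HGF and the 4 arrays of 16HBE-WT were taken by their labels, and the other 8 arrays held 16HBE-ex14 cells with and without HGF. 16HBE is a nontumorigenic line of human bronchial epithelial cells immortalised with the SV40 large T antigen, and its WT cells carry the MET receptor with exon 14. 16HBE-ex14 is a subclone of the same line after CRISPR/Cas9 editing, in which MET lacks exon 14. Cells of both genotypes were starved of serum for 2 h, and stimulated cells then received HGF at 20 ng/mL for 24 h. The sources give no separate protocol for the cells without HGF. The single dose and the single time point answer what 24 h of HGF left changed in the RNA of wild-type cells, and not what happened earlier. Cultures were separated by weeks, but neither the labels nor the files say which array came from which week. Replicate numbers therefore only name arrays, and values below are listed in the order slide 1 row 1, slide 1 row 2, slide 2 row 1 and slide 2 row 2.

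HGF is a growth factor made mainly by stromal cells, and MET is its receptor tyrosine kinase on epithelial cells. Binding of HGF makes MET phosphorylate itself and recruit adaptors such as GAB1 and GRB2, which feed the RAS-ERK, PI3K-AKT and STAT3 pathways. In epithelia the pair is known for scattering, motility, branching and repair, and wild-type MET is ubiquitinated through CBL and degraded after stimulation. ERK signalling in turn induces its own inhibitors, such as the DUSP and Sprouty genes, and the AP-1 and PEA3 transcription factors.

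Levels are given as log2 of a probe's intensity over its array's 75th percentile, so that 0 is a spot at that percentile, and a difference is the mean of the 4 HGF arrays minus the mean of the 4 unstimulated arrays. The 75th percentile was 178.1 ± 24.7 intensity units (SD, n = 4) without HGF and 171.4 ± 23.8 with it (exact permutation test, two-sided, p = 0.686). Of all probes, 52.6% ± 1.8 were well above background without HGF and 52.3% ± 3.1 with it (p = 0.886 by the same exact test). Correlations between arrays ran from 0.982 to 0.991 between the conditions and from 0.983 to 0.991 within them. All 9 bronchial epithelial markers, among them EPCAM, CDH1, the simple keratins, KRT5, TP63 and CFTR, were above background on all 8 arrays. Of the markers of other cells, 5 of 8 fibroblast markers (COL1A2, COL3A1, DCN, PDGFRA and THY1) and 4 of 6 endothelial markers were above background on none of the 8 arrays. The other 3 fibroblast (COL1A1, LUM and PDGFRB) and 2 endothelial (VWF and CDH5) markers were above it on all 8, as were 4 of 7 leukocyte markers (PTPRC, CD3E, CD14 and CSF1R) and 3 of 8 ciliated and secretory ones. The summed levels of all 5 marker lists overlapped between the conditions. MET itself was at 4.97 ± 0.17 without HGF and 5.00 ± 0.12 with it, a difference of 0.03 (SE 0.11) that was negative under 2 other scalings. Both HGF probes were above background on 0 of the 16 arrays.

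No probe passed the test. Of 58201 probes, 34600 were tested because the scanner software put them well above background on 4 or more of the 16 arrays, and these carry 26368 gene names. limma called 0 of them (0% of tested probes) at a Benjamini-Hochberg adjusted p below 0.05 and a fold change above 1.5, and the smallest adjusted p was 0.549. An unadjusted p below 0.05 was found for 1694 probes, against 1730 expected by chance. With the fold limit added, 457 of these probes were higher (1.32% of those tested) and 151 lower (0.436%) with HGF. When the p-values of the 5 contrasts between the 4 conditions were adjusted together instead, 85 probes were called, 63 higher and 22 lower. That adjustment draws on the much larger differences of the other contrasts, and 32 of the 85 were above background on all 8 arrays.

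The differences were small against what the arrays could resolve. The middle 90% of probes lay between -0.31 and 0.49, around a median of 0.04, and the median standard error was 0.17. For 20128 probes (58.2%) the 95% interval lay wholly inside a 1.5-fold change in either direction, and for 29046 it lay inside a 2-fold change. Probes above background on all 8 arrays, 25661 in number, had a median standard error of 0.14, and 145 of them differed by more than 1.5-fold. Among the 8939 dimmer probes the median standard error was 0.35, and 1373 differed by that much. Of all tested probes 59.5% had a positive difference, a share that was 30.5% when arrays were scaled to their median and 50.4% after quantile normalization. Scaling to the median moves every difference by -0.12, so gene groups are described below against the median of all genes, which was 0.04. Array median and spike-in scaling move all genes alike, and so cannot change a gene's place relative to that median.

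**Figure D1:**
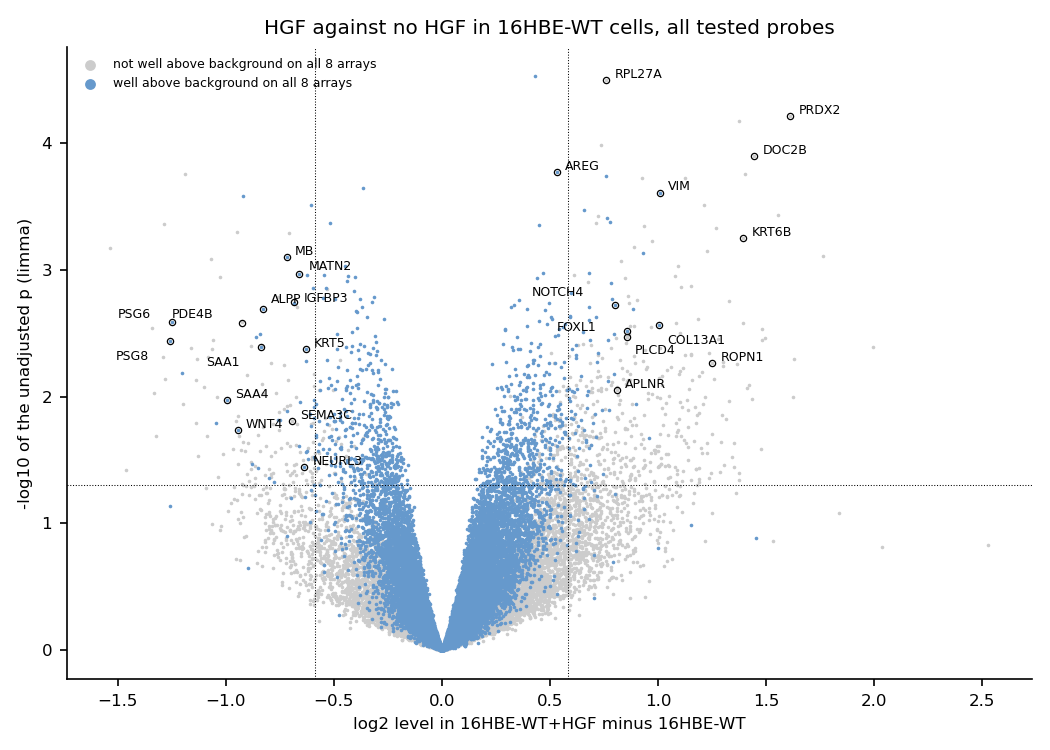
Each point is a tested probe, with its log2 difference between 16HBE-WT+HGF and 16HBE-WT (x axis) against -log10 of its unadjusted p (y axis). Dotted lines mark the fold limit and the unadjusted limit of limma's test, blue points were well above background on all 8 arrays, and the dim grey points make up most of the differences above 1.5-fold. None of the probes passed the adjusted test.

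All 4 HGF arrays lay above all 4 unstimulated arrays for 418 of the 26368 genes (1.59%), and all 4 lay below for 241 (0.914%). Counted by probe, 553 lay above and 352 below, which became 182 and 524 with array median scaling and 447 and 479 after quantile normalization. The 12 genes with the largest positive difference among these, with an unadjusted p below 0.05 and signal on all 4 HGF arrays, were ROPN1, LINC01031, LINC02055, VIM, COL13A1, CSE1L-AS1, LINC00708, FOXL1, PLCD4, LINC02414, APLNR and NOTCH4. Of these, VIM, COL13A1, FOXL1 and NOTCH4 were above background on all 8 arrays. A second LINC02055 probe was at -0.23. The arrays chose these genes, so their lack of overlap is a description and carries no test of its own.

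VIM encodes vimentin, the intermediate filament protein of mesenchymal cells that many cultured epithelial cells also make. Its level was -1.87, -1.67, -1.78 and -1.33 on the 4 unstimulated arrays and -0.40, -0.91, -0.63 and -0.68 on the 4 HGF arrays (probe at chr10:17278347-17279256, hg19). Every HGF array was thus higher than every unstimulated one, by a mean of 1.01 (SE 0.21, fold 2.01, unadjusted p = 0.000247, adjusted p = 0.576). COL13A1, a transmembrane collagen of cell-matrix contacts, was at -0.80, 0.07, -0.31 and -0.06 without HGF and at 0.86, 0.31, 1.12 and 0.65 with it (chr10:71718811-71718870). Its difference was 1.01 (SE 0.28, unadjusted p = 0.00275, adjusted p = 0.864). FOXL1, a forkhead transcription factor, lay between -3.10 and -2.47 without HGF and between -1.84 and -1.75 with it, and the lowest value was that of replicate 1. NOTCH4, a receptor of the Notch family, lay between -3.99 and -3.24 without HGF and between -2.93 and -2.42 with it. These genes differed by 0.86 (SE 0.24) and 0.80 (SE 0.21).

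AREG encodes amphiregulin, a ligand of the EGF receptor, and was the only one of the 5 genes with a symbol and the smallest unadjusted p, each by its probe of highest mean, that was above background on all 8 arrays. Its level was 4.91, 5.07, 5.15 and 5.20 without HGF and 5.64, 5.69, 5.53 and 5.60 with it (chr4:75320518-75320577). The arrays were close to each other within each condition, so that a difference of 0.53 (SE 0.11, fold 1.45) gave an unadjusted p of 0.00017 and an adjusted p of 0.549. The second AREG probe differed by 0.45. The other 4 genes with the smallest p were RPL27A, PRDX2, LINC01265 and DOC2B, each above background on 0 or 1 of the unstimulated arrays. PRDX2 cleared background on 1 HGF array and no unstimulated one, and DOC2B on 2 HGF arrays and no unstimulated one. LINC01031 was above background on no unstimulated array and on all 4 HGF arrays, the latter being part of the rule that chose it. It was at least 1.75-fold higher, a description that carries no test. Such a bound is the mean over the bright arrays against the lowest signal called above background on each dim array. KRT6B, a keratin of stressed and wounded epithelium, cleared background on no unstimulated and 3 HGF arrays, and over those 3 the bound was 1.40-fold higher.

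AP-1 and PEA3 factors are targets of ERK signalling, so the letters they bind were searched in the promoters of genes at both ends of the ranking and of AREG. RefSeq promoters (GRCh38.p14) were matched for 10 of the 15 such genes above background on all 8 arrays. The 250 bases before the start held the AP-1 letters TGANTCA in 1 of the 10 (NOTCH4) and the PEA3 letters AGGAAG, read on both strands, in 3 (COL13A1, NOTCH4 and AREG). Among all 35116 promoters of the same length 6.57% and 28.7% held them. A match of letters is not a bound site. The 3 promoters with a match and that of VIM, which has none, are shown 5′ to 3′ on the gene's strand with the matches in capitals (VIM at chr10:17227991-17228240 and COL13A1 at chr10:69801656-69801905 on the plus strand, NOTCH4 at chr6:32224068-32224317 on the minus strand, AREG at chr4:74444886-74445135 on the plus strand).
VIM: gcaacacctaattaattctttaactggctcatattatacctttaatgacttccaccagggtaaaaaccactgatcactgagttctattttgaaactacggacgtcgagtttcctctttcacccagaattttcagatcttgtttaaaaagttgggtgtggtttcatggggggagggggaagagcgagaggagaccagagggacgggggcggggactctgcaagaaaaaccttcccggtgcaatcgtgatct
COL13A1: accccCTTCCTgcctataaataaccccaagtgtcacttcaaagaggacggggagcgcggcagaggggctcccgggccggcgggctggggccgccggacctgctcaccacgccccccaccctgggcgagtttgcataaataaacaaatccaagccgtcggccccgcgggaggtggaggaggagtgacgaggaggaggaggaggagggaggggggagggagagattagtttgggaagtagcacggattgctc
NOTCH4: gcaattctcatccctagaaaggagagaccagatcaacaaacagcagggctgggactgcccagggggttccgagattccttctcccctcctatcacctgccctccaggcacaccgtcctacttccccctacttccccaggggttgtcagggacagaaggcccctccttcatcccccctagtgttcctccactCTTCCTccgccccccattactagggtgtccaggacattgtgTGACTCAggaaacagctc
AREG: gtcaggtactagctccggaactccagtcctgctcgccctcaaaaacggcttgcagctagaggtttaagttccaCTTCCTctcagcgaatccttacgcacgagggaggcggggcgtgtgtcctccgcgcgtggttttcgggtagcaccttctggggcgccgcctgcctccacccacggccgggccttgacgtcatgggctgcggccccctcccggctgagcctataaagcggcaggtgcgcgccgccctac
In NOTCH4 the capitals nearest the start are the AP-1 letters, and the other capitals in the 3 genes are the PEA3 letters read on the opposite strand.

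Signal on all 4 unstimulated arrays was required of the 12 lowest genes, so their brightness was partly set by that rule. Of all probes lower with HGF at an unadjusted p below 0.05 and over 1.5-fold, 39 were above background on all 8 arrays and 112 were not. The 12 genes with the largest negative difference, by the same rule, were PSG8, PSG6, SAA4, WNT4, PDE4B, SAA1, ALPP, MB, SEMA3C, IGFBP3, MATN2 and NEURL3, and 10 of them were above background on all 8 arrays. PDE4B, a cyclic AMP phosphodiesterase, was above background on all 4 unstimulated and none of the HGF arrays and was at least 1.80-fold lower. SEMA3C, a secreted semaphorin, was above background on all 4 unstimulated arrays and 1 HGF array.

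ALPP encodes placental alkaline phosphatase. It was at 5.26, 4.67, 4.81 and 5.17 without HGF and at 4.24, 4.31, 3.91 and 4.16 with it (chr2:233247198-233247257), a difference of -0.83 (SE 0.22, unadjusted p = 0.00205, adjusted p = 0.816). IGFBP3, which binds insulin-like growth factors outside the cell, was at 5.09, 4.52, 4.78 and 5.01 without HGF and at 4.06, 4.16, 4.12 and 4.31 with it (chr7:45952608-45952667). Its difference was -0.69 (SE 0.18, adjusted p = 0.808), and the 4 HGF arrays were closer to each other than the 4 unstimulated ones. MATN2, a matrix protein of the matrilin family, and MB, myoglobin, differed by -0.66 (SE 0.16) and -0.72 (SE 0.17), and a second MATN2 probe was at 0.05.

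The pregnancy-specific glycoproteins (PSG) are secreted members of the CEA family, and the serum amyloid A proteins (SAA) are acute-phase proteins. The 11 PSG probes tested ran from -1.46 to 0.01 with a median of -0.85. Their 8 gene names include PSG10P, a pseudogene, and PSG8-AS1, an antisense transcript. Of the 11 probes, 10 were negative under the 75th percentile and under normexp, and all 11 under the other 3 scalings. The 5 SAA probes, with the pseudogene SAA3P among them, ran from -0.99 to -0.11, all negative under each of the 5 scalings. The families were taken up because PSG8, PSG6, SAA4 and SAA1 were among the lowest genes above. Those genes are counted again here, so the counts are a description and carry no test. Of all tested probes, 59.5% were positive under the 75th percentile and 30.5% with array median scaling. With normexp background correction the median was -0.31 for PSG and -0.41 for SAA. PSG8 was at 0.25, -0.92, 0.31 and -0.42 without HGF and at -1.77, -1.07, -1.94 and -1.02 with it (chr19:43258490-43258549). The arrays of row 1 lay far apart and those of row 2 close together, and the mean difference was -1.26 (SE 0.36, adjusted p = 0.864). SAA1 was at 2.91, 2.47, 3.16 and 2.58 without HGF and at 1.64, 2.16, 1.61 and 2.37 with it (chr11:18290868-18291310), with the same pattern and a difference of -0.84 (SE 0.25). No 2 probes of different PSG genes shared more than 28 of 60 bases without gaps, and no 2 of different SAA genes more than 22. Probes were compared only with each other, so binding of a probe to the transcript of another family member was not tested.

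**Figure D2:**
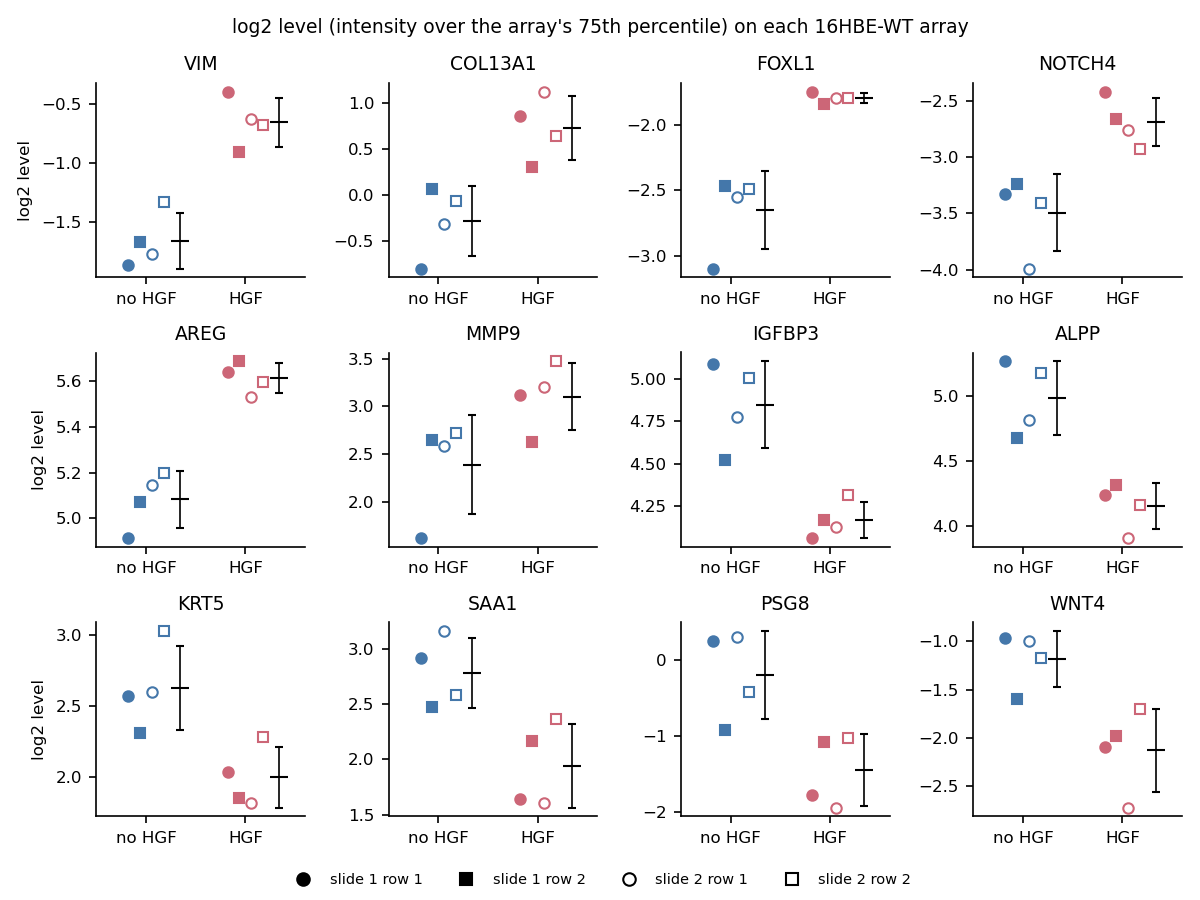
Each panel gives the log2 level (y axis) of a gene on the 4 unstimulated (blue) and 4 HGF (red) arrays of 16HBE-WT, with circles for row 1, squares for row 2, filled symbols for slide 1 and open ones for slide 2, and the mean with its SD beside each group. In SAA1 and PSG8 the circles lie farther apart than the squares, while in AREG and KRT5 both rows differ alike. MMP9 is the only gene of the 12 whose conditions overlap.

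For many of the named genes the difference was larger among the arrays of row 1. Each row of each slide held 1 array of every condition, and what else the rows stood for is not recorded. The difference was -2.13 in row 1 and -0.38 in row 2 for PSG8, -2.07 and -0.44 for PSG6, -1.68 and -0.30 for SAA4, -1.41 and -0.26 for SAA1, and -1.43 and -0.46 for WNT4, a secreted WNT ligand. VIM (1.31 and 0.71), COL13A1 (1.54 and 0.47) and MMP9 (1.06 and 0.37) were also farther apart in row 1. AREG (0.55 and 0.51), KRT5 (-0.66 and -0.60) and IL11 (0.60 and 0.58) differed alike in both rows. LINC00708 (0.49 and 1.29), LINC02414 (0.69 and 0.98), LINC02055 (0.99 and 1.21), RPL27A (0.56 and 0.97), LINC01265 (0.54 and 0.94) and DOC2B (1.18 and 1.71), all dim, were farther apart in row 2. In all, 9 of the 12 highest and 12 of the 12 lowest genes had the larger difference in row 1. The share among all tested genes was not counted, and the PSG and SAA genes among the lowest belong to common families. By slide, PSG8 differed by -1.09 on slide 1 and -1.42 on slide 2, and AREG by 0.67 and 0.39. Across the 25661 probes above background on all 8 arrays, the difference in row 1 and that in row 2 had a correlation of -0.06, and that on slide 1 and on slide 2 of 0.14, over probes that share arrays and are not independent. In 16HBE-ex14 the corresponding correlations were 0.33 and 0.56. A limma fit on the 8 wild-type arrays with a term for the difference between rows called 0 probes for that term (smallest adjusted p 0.995). Its unadjusted p was below 0.05 for 1213 probes, against 1730 expected by chance. A difference between rows was thus not shown for any probe, and it cannot be told apart from differences between single arrays.

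The set of probes called for HGF in 16HBE-ex14 was also read by row, as a description, since its probes share arrays and are not independent. The HGF difference within 16HBE-ex14 cells uses no 16HBE-WT array, but its test uses the spread within conditions of all 16 arrays. The spread of the wild-type arrays thus had a part in the calls. That test called 693 probes, 362 higher and 331 lower. With each probe turned by its direction in 16HBE-ex14 and set against its mean over the 8 wild-type arrays, the median of the 693 was -0.28, -0.01, -0.18 and -0.13 on the unstimulated arrays and 0.22, 0.07, 0.26 and 0.07 on the HGF arrays. The conditions did not overlap, and the arrays of row 2 lay closest to each other. The median difference of these probes in 16HBE-WT was 0.45 in row 1, where 647 of 693 had the direction of 16HBE-ex14, and 0.14 in row 2, where 555 had. Within 16HBE-ex14, whose own differences chose the probes, row 1 gave 0.77 and row 2 gave 1.08. The 2 slides gave 0.28 and 0.31 in 16HBE-WT.

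Proteases and integrins that remodel the matrix were next. MMP9, a gelatinase, was at 1.62, 2.65, 2.58 and 2.72 without HGF and at 3.12, 2.62, 3.20 and 3.47 with it. Its difference was 0.71 (SE 0.27, unadjusted p = 0.021, adjusted p = 0.95), and replicate 2 with HGF lay within the unstimulated arrays. MMP1 and MMP3, a collagenase and a stromelysin, were near background, with differences of 0.80 (SE 0.38) and 0.62 (SE 0.43). ADAM8, a membrane protease, lay between 6.40 and 6.85 without HGF and between 6.86 and 7.05 with it, which did not overlap, but by only 0.31 (SE 0.16, adjusted p = 1), and its other probes differed by -0.10 and 0.10. ADAM19 differed by 0.44 (SE 0.23). The integrin chains ITGA2 and ITGA10, which pair with ITGB1 to bind collagen, differed by 0.20 (SE 0.27) and 0.22 (SE 0.26), ITGB8 by -0.08 (SE 0.23) and ADAMTSL4 by -0.06 (SE 0.16). Of the 22 secreted and membrane proteases and inhibitors listed, 18 were tested, 0 were called, and 9 lay above and 9 below the median of all genes. ADAMTS1, a secreted protease that cuts proteoglycans, was among those below, at 1.54, 1.33, 1.75 and 1.40 without HGF and 1.09, 0.99, 0.93 and 1.06 with it, a difference of -0.49 (SE 0.14, adjusted p = 0.864) that a second probe gave as -0.54. Of 21 integrin, laminin and hemidesmosome genes 10 lay above and 11 below, around a median of 0.01, with COL17A1, a collagen of hemidesmosomes, at -0.34 (SE 0.26) and 0.11 on its second probe.

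The receptor and its pathway showed no called gene. Of 18 tested genes of the receptor, its ligand activation and its adaptors, 5 lay above and 13 below the median of all genes, with a median of -0.02. MST1R, the receptor related to MET, differed by 0.13 (SE 0.11), STAT3 by -0.27 (SE 0.17) and PLXNB1, a semaphorin receptor that binds MET, by -0.29 (SE 0.12). The 15 ERK feedback genes had a median of 0.13, with 10 above and 5 below and none without overlap, and without replicate 4 of the HGF arrays the median was -0.03. ETV4, a PEA3 factor, differed by 0.41 (SE 0.26) and DUSP6, a phosphatase of ERK, by 0.36 (SE 0.29), though by -0.17 on its second probe, while SPRY2 and SPRED2, inhibitors of RAS-ERK signalling, differed by -0.19 (SE 0.12) and -0.20 (SE 0.19). The median of the same list in 16HBE-ex14 was 0.44. Of 15 immediate early and AP-1 factors, 5 lay above and 10 below. JUND was at 1.57, 1.30, 1.36 and 1.53 without HGF and 1.19, 1.27, 1.20 and 1.12 with it, without overlap and with a difference of -0.24 (SE 0.09), and FOS differed by -0.34 (SE 0.40).

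Genes of epithelial and mesenchymal character did not move as 1 block. Of 15 tested mesenchymal genes 4 lay above and 11 below the median of all genes, around -0.10, and VIM stood apart at the top. At the bottom was TGFB2, a transforming growth factor, at -0.70, -1.31, -0.22 and -0.63 without HGF and -1.65, -1.63, -1.62 and -0.98 with it, a difference of -0.76 (SE 0.28) with overlap. SPARC, a secreted matrix protein, differed by -0.37 (SE 0.17). Of 18 epithelial junction genes 2 lay above and 16 below, also with normexp and after quantile normalization, but the median was only -0.03. CLDN1 and CLDN7, claudins of tight junctions, differed by -0.26 (SE 0.13) and 0.14 (SE 0.10), DSG2, a desmosomal cadherin, by -0.25 (SE 0.10), and CDH1, E-cadherin, by -0.22 (SE 0.14). Of 14 keratin and basal cell genes 7 lay above and 7 below. KRT5, the keratin of basal cells, was at 2.57, 2.31, 2.60 and 3.03 without HGF and 2.03, 1.85, 1.81 and 2.28 with it (chr12:52908622-52908681), and the arrays did not overlap, with a difference of -0.63 (SE 0.19, unadjusted p = 0.00424, adjusted p = 0.864). Its partner KRT14 differed by -0.50 (SE 0.22) and the wound keratin KRT6A by 0.41 (SE 0.27).

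Other growth factor and signalling lists were as close to the centre. Of 10 tested EGF receptor family genes 6 lay above and 4 below, with AREG and EPGN, another ligand, at 0.53 and 0.45 (SE 0.40), and the receptor ERBB3 at -0.28 (SE 0.12), whose other probes ran from -0.18 to 0.04. VEGFA differed by 0.17 (SE 0.09), and the hypoxia and glycolysis list it belongs to had 6 of 14 above and a median of 0.03. Of 16 cytokines and chemokines 9 lay above and 7 below. IL11, a cytokine of the IL-6 family, differed by 0.59 (SE 0.24). CCL2, a chemokine for monocytes, lay between -2.78 and -1.79 without HGF and between -3.24 and -2.75 with it, a difference of -0.84 (SE 0.24, adjusted p = 0.864) in which replicate 2 without HGF lay among the HGF arrays. TNF differed by -0.49 (SE 0.25). Of 12 NF-kappa-B genes 1 lay above (TNFAIP3, a feedback inhibitor, at 0.18, SE 0.18) and 11 below, also with normexp and after quantile normalization. NFKBIA, the inhibitor of NF-kappa-B, was at -0.21 (SE 0.11) and ICAM1 at -0.16 (SE 0.11). Of 17 interferon-stimulated genes 3 lay above and 14 below, around -0.07, from IRF7 at 0.12 (SE 0.10) to OAS1 at -0.33 (SE 0.11) and MX2 at -0.33 (SE 0.19), whose second probe was at 0.42. In each of these lists 0 genes were called.

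Sterol and fatty acid synthesis genes had the lowest median of the 20 pathway lists. Of 17 genes, 1 lay above and 16 below the median of all genes, also with normexp and after quantile normalization, and the median was -0.21. HMGCS1, an early enzyme of cholesterol synthesis, was at 2.18, 1.61, 2.21 and 2.24 without HGF and 1.71, 1.52, 1.49 and 1.64 with it, a difference of -0.47 (SE 0.17, adjusted p = 0.92). The lowest unstimulated value, of replicate 2, lay within the HGF arrays. SCD, which desaturates fatty acids, differed by -0.35 (SE 0.25). Genes of amino acid supply and stress under ATF4 lay on the other side, with 13 of 16 above, 3 below and a median of 0.13. These counts were the same with normexp and after quantile normalization. VLDLR, a lipoprotein receptor, had no overlap (0.39, SE 0.15), and TRIB3, a pseudokinase induced by ATF4, differed by 0.34 (SE 0.20). In 16HBE-ex14 the medians were -0.33 for the sterol list and 0.03 for the ATF4 list. Of 12 NRF2 targets 4 lay above and 8 below, with a median of -0.07 that was 0.07 without replicate 4 of the HGF arrays. HMOX1, heme oxygenase, was at 3.28, 2.99, 3.14 and 3.20 without HGF and 2.79, 2.95, 2.87 and 2.91 with it, without overlap and with a difference of -0.28 (SE 0.10), while TXNRD1 and GCLC differed by 0.20 (SE 0.15) and 0.17 (SE 0.16).

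Genes of proliferation lay close to the median of all genes. The 16 DNA replication and G1/S genes ran from -0.07 to 0.26 around a median of 0.02, with CCNE1, the cyclin of S phase entry, at the top (0.26, SE 0.11). The 16 mitotic genes ran from -0.27 to 0.08 around 0.02, with the kinesin KIF20A and the topoisomerase TOP2A lowest at -0.27 (SE 0.13) and -0.24 (SE 0.14). Of 12 D cyclins and CDK inhibitors 4 lay above and 8 below, from CDKN1C at 0.25 (SE 0.22) and CDK6 at 0.21 (SE 0.16) to CDKN2B at -0.19 (SE 0.16) and CCND2 at -0.22 (SE 0.23). Of 14 BCL2 family genes 6 lay above and 8 below. HRK, a death promoting BH3 protein, was at -3.10, -2.62, -3.41 and -2.58 without HGF and -2.16, -1.91, -1.89 and -2.60 with it, where 1 HGF array overlapped, with a difference of 0.79 (SE 0.20, unadjusted p = 0.00169), and BCL2L2, a survival member, was at 0.20 (SE 0.10).

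**Figure D3:**
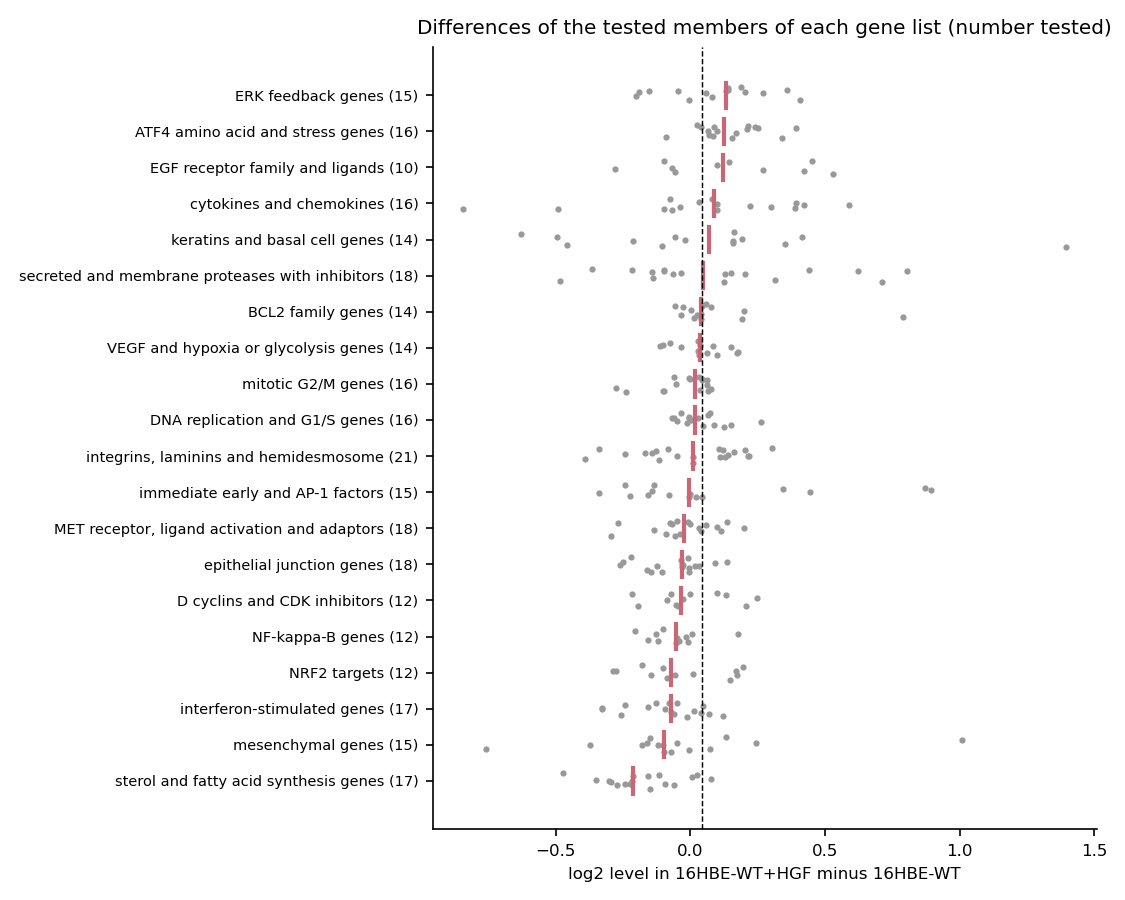
Each grey point is the log2 difference (x axis) of a tested member of the gene list named on the y axis, where the number of tested members stands in brackets, the red bar is the list's median, and the dashed line is the median of all genes at 0.04. The sterol list has the lowest median at -0.21 and the ERK feedback and ATF4 lists are near the top at 0.13, and no member of any list was called.

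The wild-type differences were then set beside those of 16HBE-ex14, where limma called 557 of the 26368 genes for HGF (2.11%). The limma test of the difference between the 2 HGF differences called 0 of 34600 probes (0%) when adjusted within that contrast. Its smallest adjusted p was 0.213, with 1600 unadjusted p below 0.05. By this adjustment no probe was shown to respond otherwise in wild-type cells, and likeness was not shown either. The unadjusted p of that limma test was 1.08e-05 for MMP1 and 1.41e-05 for KRT5. Calls of this contrast with the 5 contrasts adjusted together were not counted. VIM differed by 2.30 (SE 0.21) in 16HBE-ex14 against 1.01 in 16HBE-WT (adjusted p of the difference 0.459). ALPP differed by -2.38 against -0.83 (0.411), KRT5 by -2.32 against -0.63 (0.213) and MMP1 by 4.34 against 0.80 (0.213). AREG differed by 0.72 against 0.53, HRK by 0.65 against 0.79, and IL11 by 0.25 against 0.59.

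Bright and dim probes behaved unlike each other in this comparison. Of the 73 probes higher with HGF in 16HBE-WT at an unadjusted p below 0.05 and over 1.5-fold, and above background on all 8 arrays, 66 had the same direction in 16HBE-ex14 and 31 were called there. Of the 39 such probes that were lower, 37 had the same direction and 28 were called. Among all bright probes with a positive or negative difference in 16HBE-WT, 69.2% and 65.8% had the same direction. Of these bright probes, 281 of 15136 positive and 296 of 10525 negative ones were called in that direction in 16HBE-ex14. Of the 384 dim probes that were higher, 294 had the same direction and 17 were called, and of the 112 dim probes that were lower, 58 and 9. All dim probes gave 74.2% and 32.4%, and 50 of 5464 positive and 21 of 3475 negative ones were called in the same direction. ROPN1, LINC01031, LINC02055, CSE1L-AS1, LINC00708, LINC02414 and APLNR, the dim genes among the 12 highest other than PLCD4, differed by 0.29 to 0.52 in 16HBE-ex14 and none was called there.

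**Figure D4:**
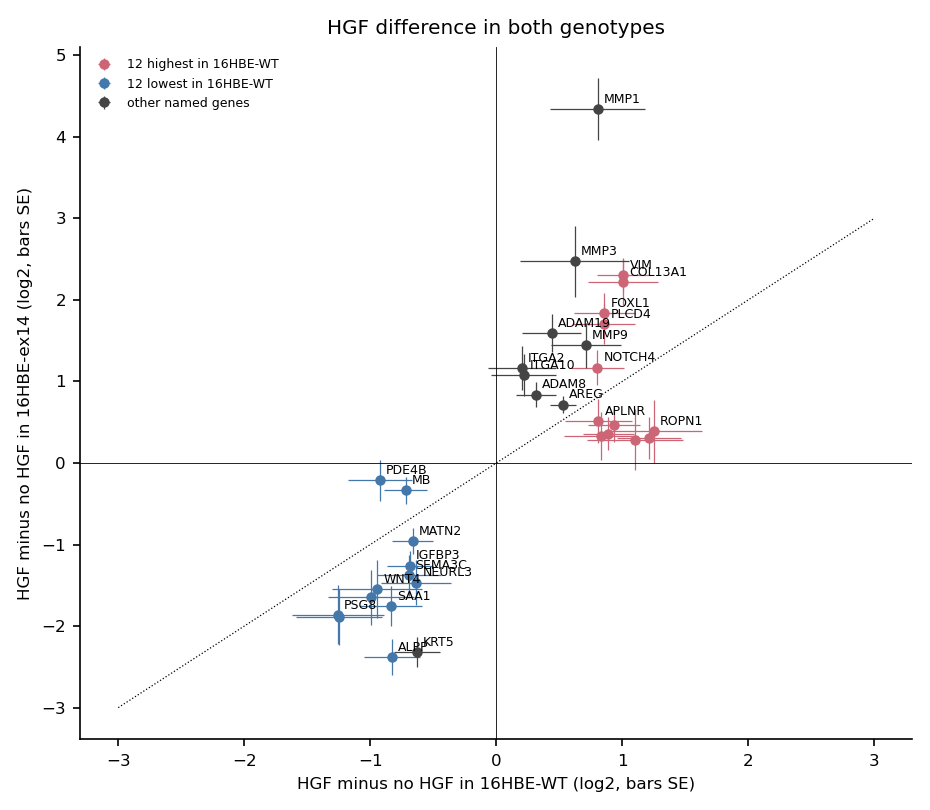
The difference with HGF in 16HBE-WT (x axis) and in 16HBE-ex14 (y axis) of named genes, on log2 scales with bars of 1 SE, for the 12 highest (red) and 12 lowest (blue) genes of 16HBE-WT and other named genes (dark grey). Most of the plotted genes above background on all 8 arrays lie farther from 0 on the y axis than on the x axis, as VIM at 2.30 and 1.01, while a group of dim genes near ROPN1 lies the other way.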

How the data were processed

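RNA of 16HBE cells was hybridised by the authors to one-colour Agilent arrays of 60-base probes, and the deposited values are spot intensities (Cyanine 3 processed signal, background-subtracted) from Feature Extraction 10.7.3.1. The deposited value table holds the same intensities. Groups came from the sample descriptions, since titles of the HGF-treated wild-type samples carry an unexplained abbreviation. Spots of a probe were averaged, intensities were scaled to each array's 75th percentile, and log2 was taken. Control spots were left out, and probes that cleared background on 4 or more of the 16 arrays were kept. limma 3.58.1 in R 4.3.3 fitted 1 mean per condition over the 16 arrays, so the spread is shared, and p-values were adjusted by Benjamini-Hochberg over all tested probes. A call needed an adjusted p below 0.05 and over 1.5-fold. The script was tested on simulated data. A gene was represented by its tested probe of highest mean.

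Named genes were MET, HGF and 9 protease and integrin genes of the study's array section, the 12 highest and 12 lowest genes without overlap, the 5 smallest p, and the extremes of each list; loci without a symbol were left out. The comparison, the lists and the rule were chosen with earlier results of these data known. Other scalings (normexp, quantile, array median, spike-ins), filters, a replicate, slide or row block, and leaving out each array were tried. Probe positions are those of the array annotation (hg19). The number of arrays limits the precision.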

Additional observations from a re-analysis of the deposited data

Results flagged for a closer look

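Among 192 groups of 4 arrays, for the named genes and some array-level values, 14 had 1 array far from the other 3, where chance flags about 1 group in 20. Without HGF, replicate 1 was the lowest for MMP9 (1.62) and FOXL1 (-3.10) and the highest for ADAMTSL4 (-0.0694). Replicate 2 without HGF was the lowest for NFKBIA (5.67) and HMGCS1 (1.61). Replicate 3 without HGF was the highest for RPL27A (-3.98) and KRT14 (2.49) and the lowest for KRT6B (-5.51) and EPGN (-0.64), and replicate 4 was the lowest for APLNR (-4.16). With HGF, replicate 1 was the highest for LINC02414 (-1.88), replicate 3 the highest for APLNR (-2.49), and replicate 4 the highest for TGFB2 (-0.98) and the lowest for GCLC (2.97). The distant arrays came from both slides and both rows.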

How the results depend on the processing

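The count of called probes was 0 by limma in all planned fits except 3: 85 when the 5 contrasts were adjusted together, 608 with an unadjusted p and the fold limit, and 1 without 16HBE-WT+HGF replicate 2 (PRDX2, at 1.97), so that leaving out 1 array gave 0 to 1. The smallest adjusted p was 0.0792 without 16HBE-WT replicate 3 and 0.153 with the slide as a block. After seeing the data, a fit on the 8 arrays with the slide as a block (smallest adjusted p 0.101) and one with the row as a block (0.516) were added, and both called 0. The fit with a replicate block called 0 probes (smallest adjusted p 0.266). Deviations of arrays with the same number correlated at 0.162, 0.219, 0.0816 and 0.172, and not every array correlated best with its own number, so the numbers were not taken to pair the samples. The median difference was 0.0014 after quantile normalization, -0.081 with array median scaling and 0.076 without a filter. Probes with all HGF arrays above numbered 553, but 182 with array median scaling, 905 without a filter and 728 to 1487 without 1 array. Probes with all HGF arrays below numbered 352, but 117 with spike-in scaling and 494 to 1092 without 1 array. MET differed by -0.0174 after quantile normalization and by -0.0852 with array median scaling, and leaving out 1 array gave -0.016 to 0.104. Leaving out 1 array gave -0.121 to 0.0312 for ADAMTSL4, positive without 16HBE-WT replicate 1, and -0.158 to 0.0294 for ITGB8, positive without 16HBE-WT replicate 2. Apart from the fewer arrays, the causes were not tested. With 4 arrays a condition the median standard error limits calls to large differences, more so in dim probes.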

Other observations

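The 32 probes above background on all 8 arrays that were called when the 5 contrasts were adjusted together hold genes not described above, which were chosen for mention after their values were seen. Among those higher with HGF were ADAMTS6, a secreted protease (0.76), EHF, an epithelial ETS factor (0.71), NRP1, neuropilin 1, a co-receptor for semaphorins and VEGF (0.68), TGM2, tissue transglutaminase (0.65), and TNFRSF6B, a soluble decoy receptor (0.60). Among those lower were HPSE, heparanase (-0.92), PLOD1, a collagen lysyl hydroxylase (-0.86), TRIM29 (-0.62), NXN, nucleoredoxin (-0.61), and ALDH1A1, a retinaldehyde dehydrogenase (-0.60). None of them was called when p-values were adjusted by limma within the wild-type comparison alone.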
